A study of Mus musculus with 12 samples.

Results

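The 37 genes described here encode parts of the contractile and actin cytoskeleton, the transcription factors SRF, YAP and TEAD with their cofactors, and familiar target genes of YAP. They were listed by gene symbol, with no measured value in the rule, by a choice made with earlier results of these data known, and each was found with 1 probe set among the 19505 genes measured. By role, 10 belong to the smooth muscle contractile apparatus, 14 are broadly expressed actin, myosin, tropomyosin and filament genes, 8 encode transcription factors and cofactors, and 5 are YAP target genes.

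Serum response factor (SRF) binds a DNA element called the CArG box. It works with ternary complex factors, which are phosphorylated downstream of RAS and ERK, and with the myocardin-related factors MRTFA and MRTFB, which enter the nucleus when free actin monomers are used up by filament growth. YAP (Yap1) and its relative TAZ (Wwtr1) enter the nucleus when the Hippo kinases are inactive or when cells are spread and under tension, and bind DNA through TEAD factors. In cultured fibroblasts both systems drive genes of stress fibres, and Acta2, Tagln and Cnn1 are widely used as markers of contractile fibroblasts.

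RNA was measured on Affymetrix arrays in primary fibroblasts isolated from embryos of the C57/BL6 strain at embryonic day 13.5, cultured in DMEM with 10% FBS and collected while subconfluent. The genotypes were WT, Sos1KO (Sos1 deleted), Sos2KO (Sos2 deleted) and Sos1/2DKO (both deleted), 3 arrays of each, and all cultures, WT included, had received 4-hydroxytamoxifen for 12 days. Both Sos proteins switch RAS on by exchanging its GDP for GTP. The labels call the arrays biological replicates without tying them to an embryo or litter, so the p-values reflect only how far these cultures vary, and the Cre driver that the tamoxifen would act on is not given in the sources used here.

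Values are log2 RMA levels, in which a difference of 1 is a 2-fold difference, and SDs are over the 3 arrays of a group. Sos1 lay between 7.13 and 7.96 on the 6 Sos1KO and Sos1/2DKO arrays against 8.77 to 9.38 on the other 6, and Sos2 between 7.56 and 8.03 on the 6 Sos2KO and Sos1/2DKO arrays against 8.65 to 9.23 elsewhere, matching the labels. Whether the Sos1 and Sos2 probes lie inside the deleted segments was not analysed here. The poly-A control Dap was raised on 5 arrays (6.01 to 9.29 on Sos1KO replicate 3, all of Sos2KO and Sos1/2DKO replicate 1, against 3.89 to 4.13 on the other 7), the background controls rich in G and C were highest on Sos2KO replicates 1 and 2 (8.74 and 8.89, against 7.55 to 8.20 elsewhere), and Y-linked transcripts were found on 1 array of WT, 1 of Sos1KO, 2 of Sos2KO and all 3 of Sos1/2DKO. These differences run partly along the groups, and for called genes the losses of a call with a term for Dap, Y-linked expression or high-GC background are named with the values; their part in the results was not tested further. Of the 37 genes only Tead4 lay below the level of weak signal on any array, 1 of 12, taken as the 75th percentile of the intron control probes.

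The promoters of the 3 genes that fell by the widest margins without both Sos genes, Ankrd1, Tagln2 and Axl, are shown first, followed by those of Acta2, which holds the same TEAD motif, and of Srf and Cnn2, which hold a CArG box. None of these last 3 genes was called in any comparison. Each is RefSeq sequence of build GRCm38.p6 from 250 bases before to 50 after the gene's start, read 5′ to 3′ on the gene's strand. Capitals mark the TEAD motif (GGAATG or, on the other strand, CATTCC) in Ankrd1, Tagln2, Axl and Acta2, and the CArG box (CCWWWWWWGG, where W is A or T) in Srf and Cnn2. Only exact matches are marked, so a CArG box with a differing base, in Acta2 or elsewhere, is not.
Ankrd1, chr19:36119795-36120094 (- strand): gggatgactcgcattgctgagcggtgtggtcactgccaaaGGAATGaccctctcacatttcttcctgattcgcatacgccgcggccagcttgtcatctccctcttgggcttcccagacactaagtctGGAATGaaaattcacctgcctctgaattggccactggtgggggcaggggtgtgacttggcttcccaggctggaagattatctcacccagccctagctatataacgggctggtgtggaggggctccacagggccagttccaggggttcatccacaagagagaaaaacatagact
Tagln2, chr1:172499996-172500295 (+ strand): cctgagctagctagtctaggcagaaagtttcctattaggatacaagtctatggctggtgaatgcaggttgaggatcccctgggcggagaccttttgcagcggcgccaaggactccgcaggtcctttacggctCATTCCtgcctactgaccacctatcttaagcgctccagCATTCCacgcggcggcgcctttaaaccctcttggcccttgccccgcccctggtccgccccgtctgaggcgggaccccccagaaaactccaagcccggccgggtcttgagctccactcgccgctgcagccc
Axl, chr7:25788684-25788983 (- strand): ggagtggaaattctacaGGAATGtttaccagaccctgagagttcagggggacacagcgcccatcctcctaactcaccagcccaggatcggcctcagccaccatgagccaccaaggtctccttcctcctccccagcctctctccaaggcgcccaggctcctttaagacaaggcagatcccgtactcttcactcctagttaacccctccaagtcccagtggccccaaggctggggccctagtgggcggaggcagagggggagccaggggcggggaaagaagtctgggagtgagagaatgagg
Acta2, chr19:34255324-34255623 (- strand): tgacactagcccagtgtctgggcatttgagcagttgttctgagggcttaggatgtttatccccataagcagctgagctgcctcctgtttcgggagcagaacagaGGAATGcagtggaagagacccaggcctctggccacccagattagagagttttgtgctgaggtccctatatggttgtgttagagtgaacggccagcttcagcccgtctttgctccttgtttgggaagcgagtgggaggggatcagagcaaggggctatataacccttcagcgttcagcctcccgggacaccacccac
Srf, chr17:46556113-46556412 (- strand): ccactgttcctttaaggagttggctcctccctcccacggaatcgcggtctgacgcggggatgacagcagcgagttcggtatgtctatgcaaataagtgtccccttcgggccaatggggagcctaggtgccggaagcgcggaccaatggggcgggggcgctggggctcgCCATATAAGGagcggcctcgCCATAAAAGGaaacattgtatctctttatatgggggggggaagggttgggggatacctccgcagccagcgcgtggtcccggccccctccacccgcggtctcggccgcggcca
Cnn2, chr10:79988350-79988649 (+ strand): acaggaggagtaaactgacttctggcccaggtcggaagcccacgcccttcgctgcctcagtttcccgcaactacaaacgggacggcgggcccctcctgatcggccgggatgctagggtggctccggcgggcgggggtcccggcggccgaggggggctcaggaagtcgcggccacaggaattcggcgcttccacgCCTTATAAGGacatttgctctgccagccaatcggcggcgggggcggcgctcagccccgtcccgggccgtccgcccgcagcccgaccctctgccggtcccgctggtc

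Ankrd1 held the TEAD motif 210 and 123 bases before its start, Tagln2 118 and 80 bases before, Axl 233 and Acta2 146. The CArG boxes of Srf lay 82 and 62 bases before the start and that of Cnn2 56 bases before. A promoter window was given for 29 of the 37 genes, and the TEAD motif, searched on both strands, was in 14 of them (48.3%), compared with 15.3% of the 15691 genes with a window that are named on the array. The CArG box, counted only as an exact match, was in 3 (10.3%, compared with 1.70%), and the pair of motifs did not overlap in any window. These are descriptions of the letters in the window. The TEAD motif also stood in genes that were not called against WT, among them Ccn1, Amotl2, Yap1 and Wwtr1. Tpm3 and Actg2 were called lower in Sos1/2DKO as well, but Tpm3 held no match and no window was given for Actg2. The lack of a match says only that the letters are not within these 300 bases.

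Against WT, the Sos1/2DKO cultures had lower transcript levels of 5 of the 37 genes and higher levels of 0. Ankrd1 fell 7.67-fold, Tagln2 3.28-fold, Axl 3.17-fold, Actg2 2.99-fold and Tpm3 1.54-fold. Across all genes 5.94% were called in this comparison, 4.16% lower and 1.78% higher, and 11 of the 37 had an unadjusted p under 0.05, compared with 19.8% of all genes. No test over the 37 together was made. The familiar contractile markers Acta2, Tagln and Cnn1, the YAP targets Ccn1 and Ccn2, and the factors Srf, Yap1, Wwtr1 and Tead1 did not pass the test (limma over all genes, Benjamini-Hochberg adjusted p under 0.05). In Sos1KO cultures 1 of the 37, Tagln2, was called lower (0.62% of all genes called, 0.502% lower and 0.118% higher; 6 of the 37 and 11.1% of all genes had an unadjusted p under 0.05), and in Sos2KO cultures 0 were (0% of all genes called; 4 of the 37 and 13.9% of all genes had an unadjusted p under 0.05).

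Small shifts went mostly downward. Of the 37, 28 had a lower mean in Sos1/2DKO than in WT, 31 in Sos2KO and 25 in Sos1KO, where 42.6%, 47.4% and 47.6% of all genes did. The median difference was -0.155 in Sos1/2DKO, -0.218 in Sos2KO and -0.077 in Sos1KO, and that of all genes 0.055, 0.018 and 0.011. These comparisons share the WT arrays, and WT had the highest mean of the 4 groups for 20 of the 37 genes. The median of the 37 on a single array varied between replicates by 0.151 (SD), about the size of these shifts, and after cyclic loess normalisation the median was -0.026 in Sos1/2DKO and -0.065 in Sos2KO. In Sos2KO it was -0.051 with a term for the high-GC background. In RNA from whole cultures, fewer cells of a kind and less RNA per cell cannot be told apart.

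**Figure D1:**
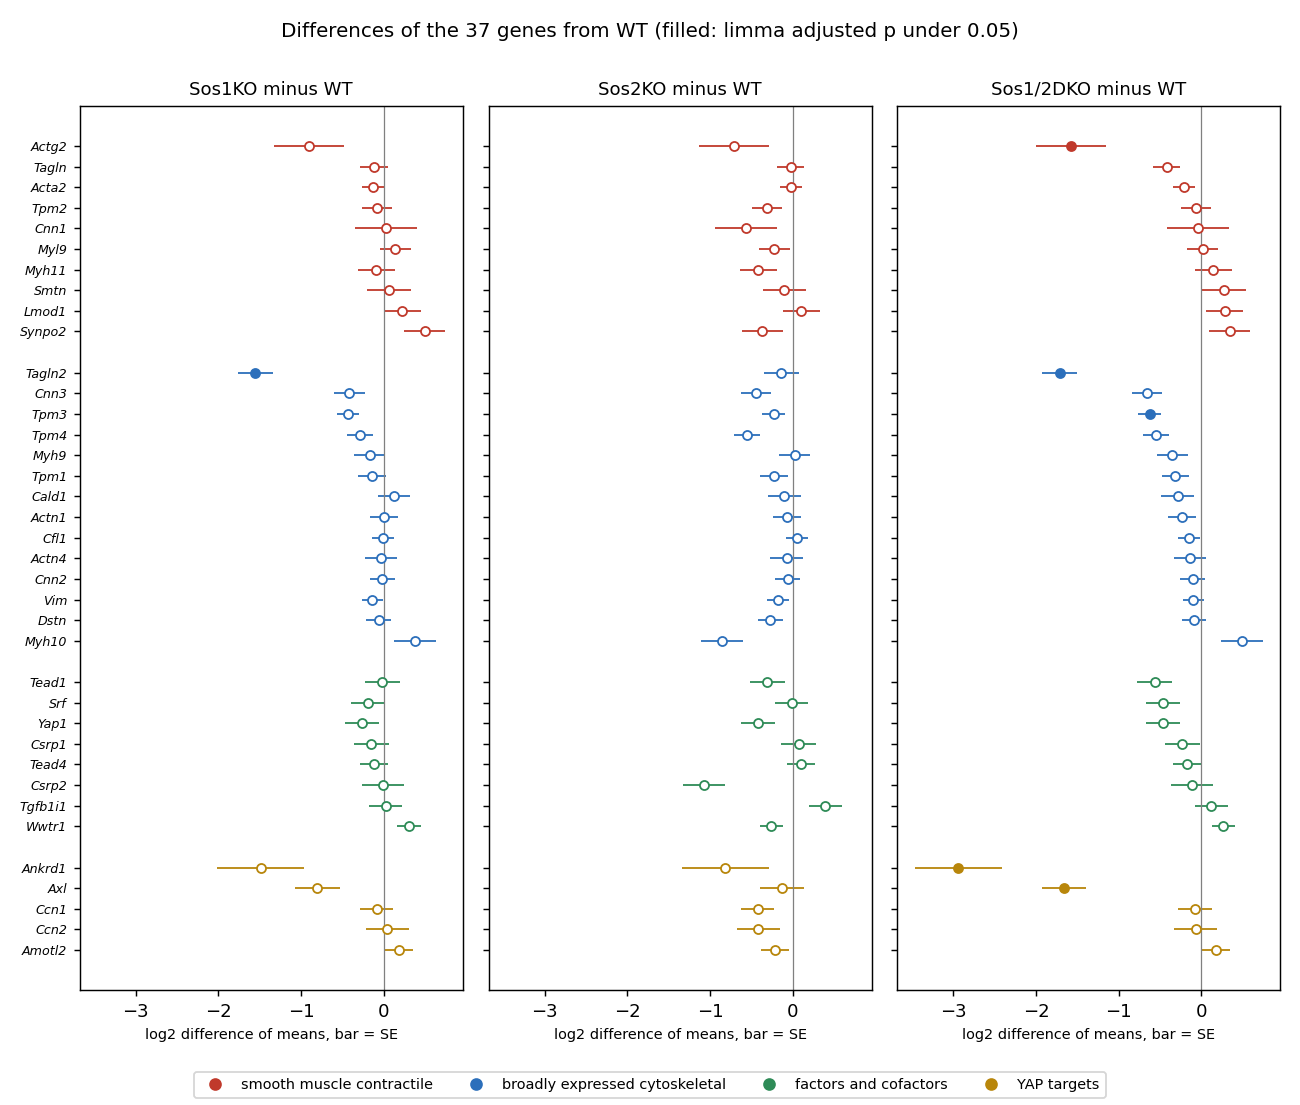
Difference of group means from WT on the log2 scale (horizontal axis) for each of the 37 genes (rows, grouped and coloured by role), with bars of 1 SE and filled points where the limma adjusted p was under 0.05. The 5 filled points for Sos1/2DKO are Ankrd1, Axl, Tagln2, Actg2 and Tpm3, the only filled point for Sos1KO is Tagln2, and there are 0 for Sos2KO.

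Of the YAP target genes, 2 of 5 fell in Sos1/2DKO (4.16% of all genes did) and the other 3 did not pass the test. Ankrd1, which encodes an ankyrin-repeat protein of the nucleus and of the sarcomere, read 11.16, 10.49 and 10.66 on the WT arrays (replicates 1 to 3), 10.14, 9.31 and 8.39 in Sos1KO, 10.14, 9.55 and 10.18 in Sos2KO and 6.99, 7.25 and 9.24 in Sos1/2DKO. Every knockout array was below every WT array, and Sos1/2DKO replicate 3 lay well above the other Sos1/2DKO arrays, within the range of Sos1KO. The mean fell by 2.94 in Sos1/2DKO (SE 0.53, limma adjusted p = 0.00917, n = 3 and 3). In Sos1KO the difference was -1.49 (SE 0.53, adjusted p = 0.251) and in Sos2KO -0.81 (SE 0.53, adjusted p = 0.501), neither past the threshold. The Sos1/2DKO call was lost when only the 7 arrays without raised Dap were fitted (-2.52, adjusted p = 0.0600) and was kept when each array was left out in turn (-3.64 to -2.52).

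Axl encodes a receptor tyrosine kinase for the ligand GAS6. It read 11.63, 11.33 and 11.21 in WT, 11.15, 10.35 and 10.27 in Sos1KO, 11.33, 10.83 and 11.63 in Sos2KO and 10.05, 9.37 and 9.76 in Sos1/2DKO. The Sos1/2DKO arrays were lowest with no overlap with any other group, Sos1KO lay between, and Sos2KO overlapped WT. The difference from WT was -1.66 in Sos1/2DKO (SE 0.27, limma adjusted p = 0.00652) and -0.80 in Sos1KO (SE 0.27, adjusted p = 0.217). The Sos1/2DKO call held in all 18 alternative settings, which included terms for Dap, Y-linked expression and high-GC background.

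Ccn1 and Ccn2 encode secreted matricellular proteins and are standard readouts of YAP activity. Ccn1 read 12.62, 12.53 and 12.77 in WT, 12.52, 12.52 and 12.62 in Sos1KO, 12.27, 11.72 and 12.67 in Sos2KO and 12.68, 12.50 and 12.51 in Sos1/2DKO. Ccn2 read 12.70, 12.50 and 12.64 in WT, 12.57, 12.67 and 12.73 in Sos1KO, 12.41, 11.44 and 12.75 in Sos2KO and 12.65, 12.29 and 12.69 in Sos1/2DKO. For both genes all groups overlapped WT, and the lowest of the 12 arrays was Sos2KO replicate 2, which also had the highest high-GC background. In Sos1/2DKO against WT, Ccn1 differed by -0.08 (95% interval -0.51 to 0.36) and Ccn2 by -0.07 (-0.64 to 0.50), and both signs turned after cyclic loess (0.05 and 0.06). Amotl2, which encodes a junctional protein that binds YAP, differed by 0.18 (-0.19 to 0.55, limma adjusted p = 0.608), with 10.40, 10.15 and 10.43 in Sos1/2DKO and 10.09, 10.27 and 10.09 in WT. The intervals of Ccn1, Ccn2 and Amotl2 do not reach a fall of the size measured for Axl or Ankrd1. This holds for the measured values. Ccn1 and Ccn2 lay at percentiles 99.83 and 99.84 of mean level over all genes, and whether the arrays show the full size of a fall at such levels was not tested.

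**Figure D2:**
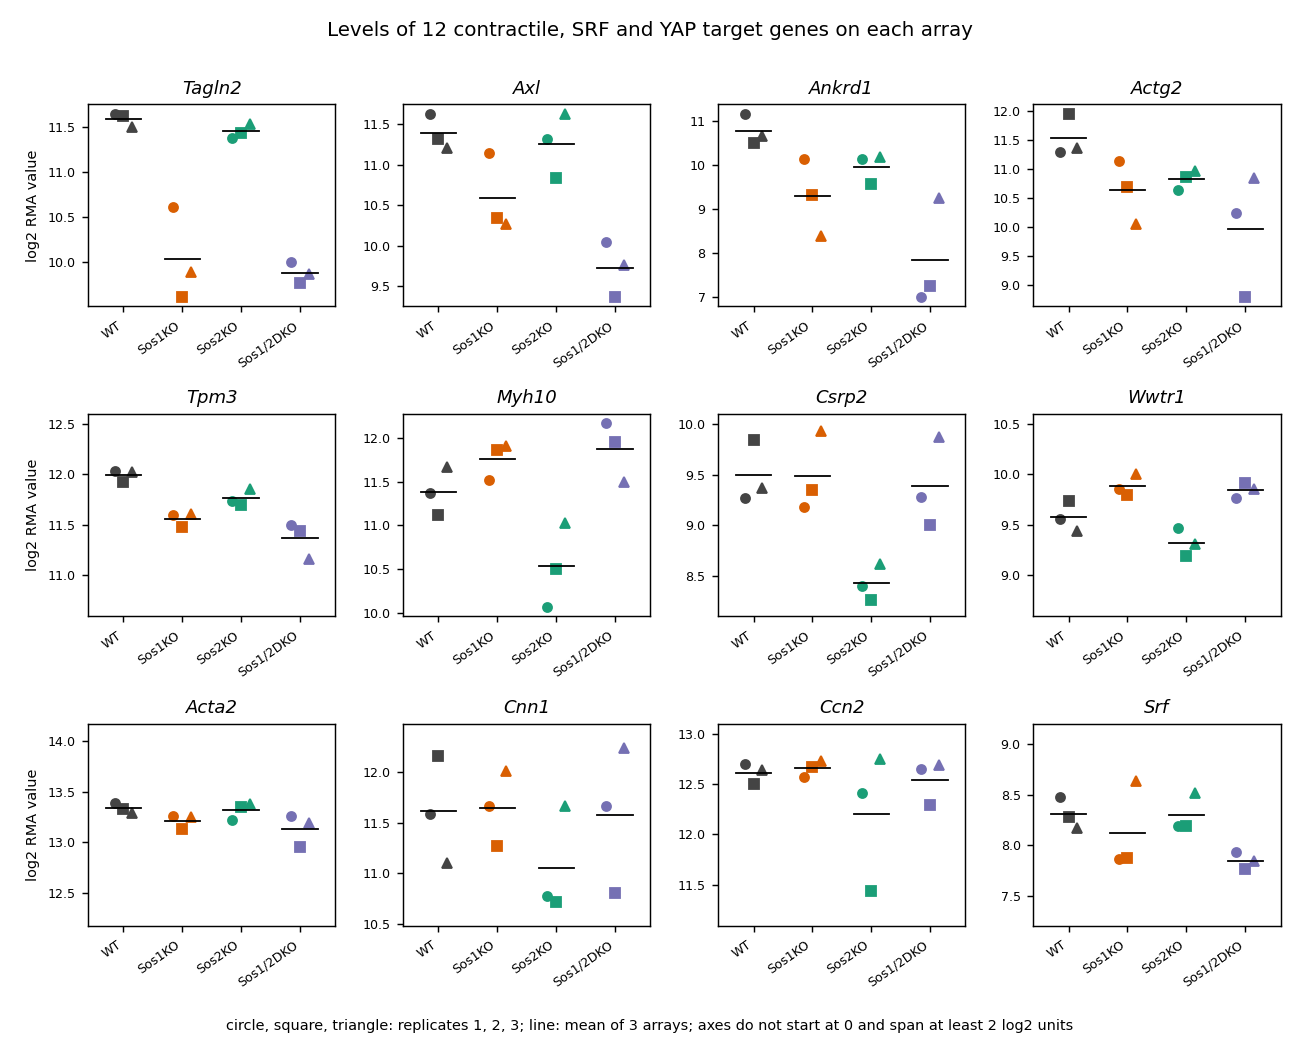
Log2 RMA level (vertical axis) of 12 of the genes on each of the 12 arrays, by genotype, with circles, squares and triangles for replicates 1, 2 and 3 and a line at the mean of 3 arrays. Tagln2 is lower in Sos1KO and Sos1/2DKO without overlap with WT, Axl is lowest in Sos1/2DKO, Myh10 and Csrp2 are lowest in Sos2KO, and Acta2 differs by at most 0.44 between any 2 arrays.

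Among the 14 broadly expressed cytoskeletal genes, Tagln2 and Tpm3 fell in Sos1/2DKO (4.16% of all genes did). In that group 13 of the 14 had a mean below that of WT (42.6% of all genes). Tagln2 encodes transgelin 2, an actin-binding protein of the calponin family found in many cell types. It read 11.65, 11.62 and 11.49 in WT, 10.61, 9.61 and 9.89 in Sos1KO, 11.38, 11.44 and 11.53 in Sos2KO and 10.00, 9.76 and 9.87 in Sos1/2DKO. All 6 arrays of the groups with Sos1 deleted were below the other 6, the highest at 10.61 and the lowest of the others at 11.38. The difference from WT was -1.71 in Sos1/2DKO (SE 0.21, limma adjusted p = 0.00390) and -1.55 in Sos1KO (SE 0.21, adjusted p = 0.0135), and in Sos2KO it was -0.14 with an interval of -0.59 to 0.32. Sos1/2DKO and Sos1KO differed by -0.16 (interval -0.62 to 0.30, adjusted p = 0.878). The Sos1/2DKO call held in all 18 alternatives, while the Sos1KO call was lost without WT replicate 1 (adjusted p = 0.107), WT replicate 3 (0.0690) or Sos1KO replicate 2 (0.0709), where 0 genes in all were called, and on the arrays without raised Dap (0.133), with differences of -1.34 to -1.60.

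Tpm3 encodes a tropomyosin that lies along actin filaments. It read 12.03, 11.92 and 12.02 in WT, 11.60, 11.48 and 11.60 in Sos1KO, 11.74, 11.69 and 11.86 in Sos2KO and 11.50, 11.44 and 11.16 in Sos1/2DKO. All 9 knockout arrays were below the lowest WT array. The difference was -0.63 in Sos1/2DKO (SE 0.14, limma adjusted p = 0.0199), -0.43 in Sos1KO (adjusted p = 0.184) and -0.23 in Sos2KO (adjusted p = 0.467). The Sos1/2DKO call was lost without WT replicate 1 (0.0929), WT replicate 3 (0.0741) or Sos1/2DKO replicate 3 (0.0578), with only those 2 groups fitted (0.0748), on the arrays without raised Dap (0.0680) and with a term for Y-linked expression (0.0796).

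The closest of the uncalled genes in this group were Cnn3, which encodes acidic calponin, and Tpm4, another tropomyosin. In Sos1/2DKO against WT, Cnn3 differed by -0.66 (SE 0.18, limma adjusted p = 0.0527) and Tpm4 by -0.55 (SE 0.16, adjusted p = 0.0620), and for both the arrays of the 2 groups did not overlap. In Sos2KO Tpm4 differed by the same -0.55 (adjusted p = 0.280) and Cnn3 by -0.45 (adjusted p = 0.327). The remaining genes of this group, apart from Myh10, are Cnn2, Myh9, Tpm1, Actn1, Actn4, Cald1, Vim, Dstn and Cfl1, and their differences in Sos1/2DKO ran from -0.35 for Myh9, the heavy chain of non-muscle myosin IIA, to -0.09 for the actin-severing protein destrin, Dstn. None of these 9 was called against WT in any group. The mean over the 14 genes was 12.04 ± 0.03 in WT against 11.84 ± 0.08 for Sos1KO, 11.82 ± 0.13 for Sos2KO and 11.69 ± 0.13 for Sos1/2DKO (SD, n = 3 arrays each), and all 9 knockout arrays were below all WT arrays. The median differences of the 14 genes from WT were -0.099, -0.157 and -0.262 in the same order. Tagln2 had the largest fall of the 14 in Sos1KO and in Sos1/2DKO and weighs on the means of those groups.

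**Figure D3:**
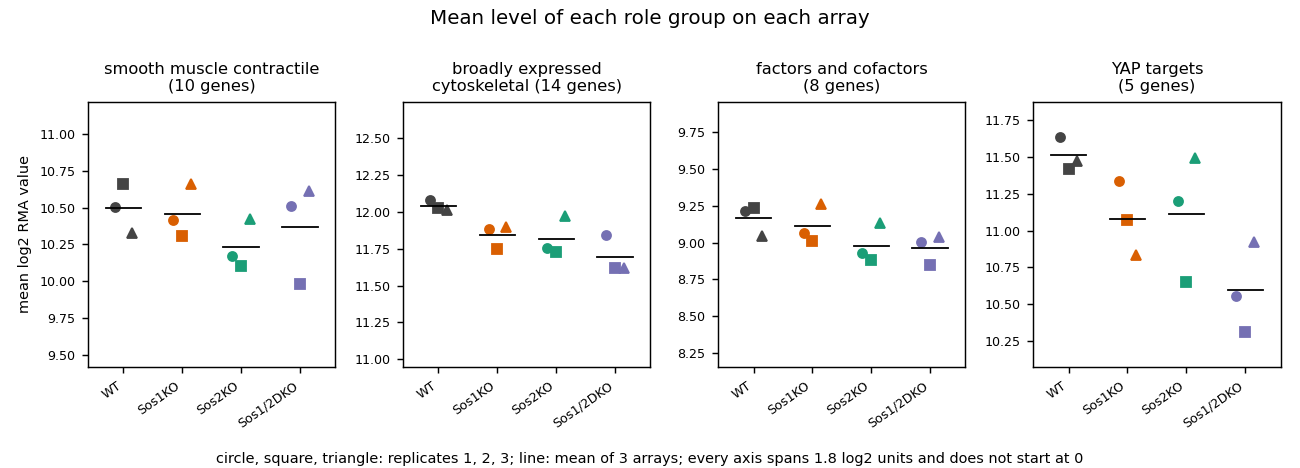
Mean log2 RMA level (vertical axis) of each role group on each array, by genotype, with a line at the mean of 3 arrays; each point averages 10, 14, 8 or 5 genes. The broadly expressed cytoskeletal genes lie highest in WT (12.04) with no overlap, the smooth muscle contractile genes overlap between all groups, and the YAP target mean is lowest in Sos1/2DKO (10.60), where the median difference of the 5 genes from WT is -0.077 and 2 of them, Ankrd1 and Axl, fell.

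Myh10, the heavy chain of non-muscle myosin IIB, had the only mean in its group above WT in Sos1/2DKO and the lowest in Sos2KO. It read 11.37, 11.12 and 11.67 in WT, 11.51, 11.87 and 11.91 in Sos1KO, 10.06, 10.49 and 11.03 in Sos2KO and 12.17, 11.96 and 11.49 in Sos1/2DKO. The Sos2KO arrays were below all others. Against WT, Sos2KO differed by -0.85 (SE 0.25, limma adjusted p = 0.280) and Sos1/2DKO by 0.49 (SE 0.25, adjusted p = 0.309), neither past the threshold. Csrp2, a LIM-domain protein that works as a cofactor of SRF in smooth muscle, had the same low Sos2KO arrays. It read 9.27, 9.85 and 9.37 in WT, 9.18, 9.35 and 9.94 in Sos1KO, 8.40, 8.26 and 8.62 in Sos2KO and 9.28, 9.003 and 9.87 in Sos1/2DKO. The Sos2KO difference from WT was -1.07 (SE 0.25, adjusted p = 0.278). Without Sos2KO replicate 3, 2 of the 37 genes were called lower in Sos2KO, Myh10 (-1.10, limma adjusted p = 0.0396) and Csrp2 (-1.17, 0.0495), with 3.69% of all genes called. That fit kept Sos2KO replicates 1 and 2, which had the highest high-GC background (8.74 and 8.89), and the part of this background was not tested. Both differences remained uncalled in the 16 other alternatives, the Dap and high-GC terms among them.

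Of the 10 genes of the smooth muscle contractile apparatus 1, Actg2, fell in Sos1/2DKO (4.16% of all genes did). The means of 5 lay above WT and 5 below (42.6% of all genes below). Actg2 encodes the gamma actin of enteric smooth muscle. It read 11.29, 11.96 and 11.36 in WT, 11.14, 10.70 and 10.06 in Sos1KO, 10.64, 10.86 and 10.97 in Sos2KO and 10.25, 8.79 and 10.84 in Sos1/2DKO. All knockout arrays were below WT, the highest of them at 11.14 and the lowest WT array at 11.29, and Sos1/2DKO replicate 2 stood apart from its group. The difference from WT was -1.58 in Sos1/2DKO (SE 0.42, limma adjusted p = 0.0459), -0.91 in Sos1KO (adjusted p = 0.458) and -0.71 in Sos2KO (adjusted p = 0.461). The call was lost in 14 of 18 alternatives, including with each WT array left out (adjusted p = 0.103 to 0.157) and without Sos1/2DKO replicate 1 (0.0723) or replicate 2 (-0.99, 0.0707). It was also lost with the Dap term (0.0922), the Y term (0.166) and the high-GC term (0.0688), and on the arrays without raised Dap (0.137).

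Acta2, the alpha actin of vascular smooth muscle and myofibroblasts, read 13.39, 13.33 and 13.29 in WT, 13.26, 13.13 and 13.24 in Sos1KO, 13.22, 13.35 and 13.38 in Sos2KO and 13.26, 12.95 and 13.19 in Sos1/2DKO. The Sos1KO and Sos1/2DKO arrays lay just below those of WT. The Sos1/2DKO difference was -0.21 (interval -0.50 to 0.08, limma adjusted p = 0.430). Tagln, which encodes the actin-binding protein transgelin (SM22), read 12.84, 12.75 and 12.54 in WT, 12.60, 12.49 and 12.70 in Sos1KO, 12.66, 12.63 and 12.78 in Sos2KO and 12.54, 11.96 and 12.38 in Sos1/2DKO. Its Sos1/2DKO difference of -0.42 (interval -0.78 to -0.06) had an adjusted p of 0.179 in limma, and WT replicate 3 and Sos1/2DKO replicate 1 were at the same value to 2 decimals. Acta2 and Actg2 have near-identical coding sequences and Tagln and Tagln2 are relatives. Probe positions were not analysed, so signal shared between such pairs cannot be separated.

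Cnn1, the calponin of smooth muscle, varied widely between cultures of one genotype, with a residual SD of 0.55 against a range of 0.60 between the group means. It read 11.59, 12.16 and 11.10 in WT, 11.66, 11.27 and 12.01 in Sos1KO, 10.78, 10.71 and 11.67 in Sos2KO and 11.67, 10.81 and 12.24 in Sos1/2DKO. All groups overlapped, and the Sos1/2DKO difference of -0.04 (interval -0.86 to 0.77) turned sign in some settings (0.09 after cyclic loess). Myh11, the smooth muscle myosin heavy chain, read 8.24, 8.26 and 7.90 in WT, 8.18, 7.81 and 8.16 in Sos1KO, 7.93, 7.40 and 7.83 in Sos2KO and 8.53, 7.79 and 8.52 in Sos1/2DKO. Its groups overlapped as well, with a difference of 0.14 in Sos1/2DKO (interval -0.34 to 0.62) and -0.42 in Sos2KO (limma adjusted p = 0.419). The other 5 genes of this group (Myl9, Tpm2, Lmod1, Smtn and Synpo2) differed by -0.06 to 0.34 in Sos1/2DKO, and 0 were called in any comparison.

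Srf itself, Yap1 and Tead1 were lower on every Sos1/2DKO array than on every WT array, but none passed the test. Srf read 8.48, 8.28 and 8.17 in WT, 7.87, 7.87 and 8.63 in Sos1KO, 8.19, 8.20 and 8.52 in Sos2KO and 7.93, 7.77 and 7.84 in Sos1/2DKO. The Sos1/2DKO difference was -0.46 (SE 0.20, limma adjusted p = 0.225), and Sos1KO replicate 3 was the highest of the 12 arrays. Yap1 read 9.22, 9.20 and 9.09 in WT, 9.26, 8.73 and 8.75 in Sos1KO, 8.63, 8.44 and 9.19 in Sos2KO and 8.71, 8.86 and 8.55 in Sos1/2DKO. The difference was -0.46 (SE 0.21, adjusted p = 0.231), and Sos1KO and Sos2KO overlapped WT. Tead1, the DNA-binding partner of YAP, read 9.52, 9.19 and 9.21 in WT, 9.24, 9.24 and 9.39 in Sos1KO, 9.13, 8.58 and 9.30 in Sos2KO and 8.69, 9.09 and 8.44 in Sos1/2DKO. Its difference of -0.57 (SE 0.21) had an adjusted p of 0.153 in limma, and of 0.0452 with array weights.

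Wwtr1, which encodes TAZ, differed in the other direction from Yap1. It read 9.56, 9.73 and 9.44 in WT, 9.85, 9.80 and 10.00 in Sos1KO, 9.46, 9.18 and 9.31 in Sos2KO and 9.77, 9.91 and 9.85 in Sos1/2DKO. All 6 arrays of the groups with Sos1 deleted were above the other 6, narrowly so between Sos1/2DKO replicate 1 and WT replicate 2. Against WT the difference was 0.27 in Sos1/2DKO (SE 0.14, limma adjusted p = 0.321) and 0.31 in Sos1KO (adjusted p = 0.446), so neither was called. Of the other factors and cofactors, Tead4, Csrp1 and Tgfb1i1 differed by -0.17, -0.23 and 0.12 in Sos1/2DKO, without a call in any comparison. In this comparison 12 of the 37 genes had all Sos1/2DKO arrays below all WT arrays and 1, Wwtr1, all above, where 12.6% and 11.9% of all genes did. For Sos1KO these counts were 9 below and 2 above WT (11.5% and 10.4% of all genes), and for Sos2KO 9 and 1 (10.7% and 9.47%).

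The knockouts were next compared with each other, which asks whether losing Sos1, Sos2 or both leaves different levels. Against Sos2KO, 6 of the 37 genes differed in Sos1/2DKO (6.14% of all genes called), 3 lower (2.8% of all genes) and 3 higher (3.33%). At an unadjusted p under 0.05 there were 12, compared with 22% of all genes. Ankrd1 was lower by 2.13 (SE 0.53, limma adjusted p = 0.0331), Tagln2 by 1.57 (SE 0.21, 0.00435) and Axl by 1.54 (SE 0.27, 0.00969). The higher ones were Myh10 by 1.34 (SE 0.25, 0.0116), Csrp2 by 0.96 (SE 0.25, 0.0423) and Wwtr1 by 0.52 (SE 0.14, 0.0451). For all 6 the arrays of the 2 groups did not overlap. Among the 37 genes, 7 had all Sos1/2DKO arrays below all Sos2KO arrays and 3 above, compared with 9.41% and 10.2% of all genes. The Wwtr1 call was lost with any of the 6 arrays left out (adjusted p = 0.0551 to 0.138), that of Ankrd1 without any Sos2KO array or Sos1/2DKO replicate 1 or 2 (0.0655 to 0.111), that of Csrp2 without Sos2KO replicate 1 or 2 or Sos1/2DKO replicate 1 or 3 (0.0603 to 0.136) and that of Myh10 without Sos2KO replicate 1 (0.0513). With a high-GC background term only Tagln2 and Axl stayed called. With the Dap term Axl (0.0506), Csrp2 (0.0954) and Wwtr1 (0.163) lost their calls, and with the Y term Csrp2 (0.0701) and Wwtr1 (0.0904) did. The arrays with raised Dap include only replicate 1 of Sos1/2DKO, so a fit of those arrays alone cannot decide whether these calls hold.

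Sos1KO differed from Sos2KO in 4 of the 37 genes, 1 lower and 3 higher (4.29% of all genes called, 1.49% lower and 2.8% higher). At an unadjusted p under 0.05 there were 7, compared with 20.9% of all genes. Tagln2 was lower by 1.42 (SE 0.21, limma adjusted p = 0.0149), and Myh10 was higher by 1.24 (SE 0.25, 0.0243), Csrp2 by 1.06 (SE 0.25, 0.0375) and Wwtr1 by 0.56 (SE 0.14, 0.0432). For these 4 the groups did not overlap; among the 37 genes, 2 had all Sos1KO arrays below all Sos2KO arrays and 4 above (12.3% and 13.6% of all genes). None of the 4 was called with a Dap or high-GC background term, and Csrp2 and Wwtr1 lost their calls with the Y term. Without Sos1KO replicate 2 or 3 or Sos2KO replicate 1 or 2, 0 were called. All 3 Sos2KO arrays have raised Dap, against 1 of 3 in Sos1KO, and the part of Dap and of the high-GC background in these differences was not tested further.

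**Figure D4:**
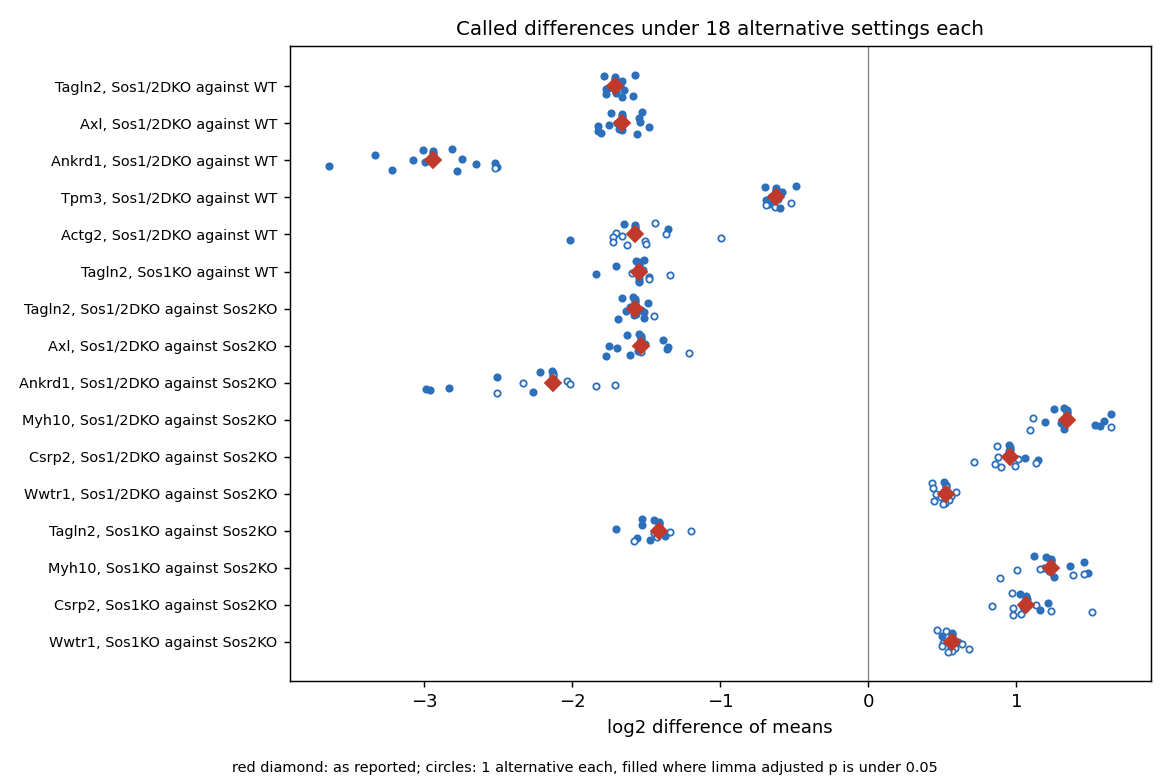
Log2 difference of means (horizontal axis) for the 16 called differences (rows), as reported (red diamond) and under each of 18 alternative settings (circles, filled where the limma adjusted p was under 0.05). Tagln2 and Axl in Sos1/2DKO against WT stay filled in all 18, Ankrd1 in 17, Tpm3 in 12 and Actg2 in 4, and no difference changes sign.

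Between Sos1/2DKO and Sos1KO 0 of the 37 genes were called by limma (0.00513% of all genes, or 1 gene). At an unadjusted p under 0.05 there were 3, compared with 7.20% of all genes. These were Ankrd1 (-1.45, SE 0.53, limma adjusted p = 0.609), Axl (-0.86, SE 0.27, 0.588) and Tead1 (-0.55, SE 0.21, 0.640), each lower in Sos1/2DKO, and the arrays of Axl and of Tead1 did not overlap. These were the 2 genes of the 37 with all Sos1/2DKO arrays below all Sos1KO arrays, and 0 were above (4.94% and 6.45% of all genes). Their 95% intervals, -2.59 to -0.31, -1.45 to -0.28 and -1.005 to -0.09, leave room for sizeable differences, so equality is not shown.

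Whether deleting both genes did more or less than the sum of the single deletions was tested as an interaction, the Sos1/2DKO minus Sos1KO difference less the Sos2KO minus WT difference. None of the 37 was called (0% of all genes), and 2 had an unadjusted p under 0.05, compared with 4.93% of all genes. They were Myh10 (0.96, SE 0.36, limma adjusted p = 0.907) and Csrp2 (0.97, SE 0.36, 0.907), the genes with low Sos2KO arrays. The interaction was -0.02 for Tagln2 (interval -0.67 to 0.62), -0.74 for Axl (-1.56 to 0.09) and -0.64 for Ankrd1 (-2.25 to 0.97), intervals too wide to call these differences additive.

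The authors' deposited tables, with their own fit and an adjusted p of up to 0.25, list 9 of the 37 genes for Sos1/2DKO, all with negative fold changes. In the authors' deposited table these are Tagln2 (adjusted p 0.0235), Axl (0.0333), Ankrd1 (0.0624), Cnn3 (0.122), Tpm3 (0.129), Actg2 (0.200), Tpm4 (0.205), Yap1 (0.234) and Srf (0.236). The authors' deposited table for Sos1KO lists Tagln2 (0.0713), Tpm3 (0.136), Ankrd1 (0.180), Axl (0.218) and Actg2 (0.244), and the one for Sos2KO lists 0 of the 37.

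Other genes of the same pathways were read from lists that hold none of the 37. Of 20 further YAP and TEAD target genes, 2 fell in Sos1/2DKO against WT and 0 rose (4.16% and 1.78% of all genes), and 7 had an unadjusted p under 0.05 (19.8% of all genes). Birc5, which encodes the cell division protein survivin, differed by -1.05 (SE 0.20, limma adjusted p = 0.0110) and Myof, a membrane repair protein, by -0.72 (SE 0.18, 0.0377). The largest upward difference was that of Tgfb2 (1.42, SE 0.42, adjusted p = 0.0706), which was above WT on all arrays, and the list's median was -0.073. In Sos1KO Birc5 was called as well (-1.08, adjusted p = 0.0396), and leaving out WT replicate 1 or 3 or any Sos1KO array, the Dap term, the Y term and the arrays without raised Dap each ended that call. The Sos1/2DKO call of Birc5 was lost without WT replicate 1 and on the arrays without raised Dap. That of Myof was lost without WT replicate 1 or 3 or Sos1/2DKO replicate 2 or 3, with the Dap, Y and high-GC terms and on the arrays without raised Dap.

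None of 18 further cytoskeletal targets of MRTF and SRF was called in Sos1/2DKO against WT (5.94% of all genes), and 5 had an unadjusted p under 0.05 (19.8%). The means of 14 lay below WT (42.6% of all genes), with a median of -0.321 (0.055 over all genes). For 7 all Sos1/2DKO arrays were below all WT arrays and for 1 above (12.6% and 11.9% of all genes). The smallest adjusted p-values were those of Coro1c, an actin-binding coronin (-0.65, limma adjusted p = 0.126), the fibronectin receptor chain Itga5 (-1.30, 0.127) and profilin, Pfn1 (-0.36, 0.150). Of 11 serum-response early genes, which SRF controls together with ternary complex factors, 0 were called and the median was -0.015. At an unadjusted p under 0.05 there were 2 (19.8% of all genes). Ier2 (-1.14, adjusted p = 0.0726) and Egr2 (-1.53, 0.0875) were below all WT arrays, while Fos had a higher mean (0.81, 0.506). Of 7 SRF and MRTF factors 1 fell (4.16% of all genes did), the ternary complex factor Elk3 (-0.83, SE 0.22, adjusted p = 0.0467). The Elk3 call was lost without any WT array or without Sos1/2DKO replicate 1 or 3, with the Dap and high-GC terms, on the arrays without raised Dap and after cyclic loess. Mrtfa (0.20, adjusted p = 0.541) and Mrtfb (-0.38, 0.388) overlapped WT.

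Upstream, 1 of 16 Hippo pathway genes fell in Sos1/2DKO, close to the 5.94% called over all genes, the kinase gene Stk4, also called Mst1 (-1.21, SE 0.31, limma adjusted p = 0.0390), with 3 of 12 arrays below the level of weak signal. Of 16 TGF-beta genes likewise 1 fell, the ligand gene Tgfb1 (-1.05, SE 0.26, adjusted p = 0.0309). Leaving out single arrays ended the calls of Stk4 (any WT array, Sos1/2DKO replicate 1 or 3) and Tgfb1 (any WT array, Sos1/2DKO replicate 2 or 3). Both calls were also lost with the Dap, Y and high-GC terms, and that of Stk4 on the arrays without raised Dap. In Sos1KO against WT 0 genes of the Hippo, TGF-beta, early-gene, factor and cytoskeletal target lists were called (0.62% of all genes).

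Markers of other cell types were read beside these results. The fibroblast list averaged 9.57 to 10.05 on the WT arrays and 9.78 to 10.27 on the Sos1/2DKO arrays. Of its 11 members 2 fell and 0 rose (4.16% and 1.78% of all genes), Thy1 (-1.54, limma adjusted p = 0.0183) and Twist2 (-1.94, 0.0178). The means of 8 lay above WT and of 3 below, with a median difference of 0.099, and Lum read 6.03 in WT and 8.58 in Sos1/2DKO, uncalled. Of 11 smooth muscle and pericyte markers 0 were called in Sos1/2DKO against WT, but 8 had an unadjusted p under 0.05 (19.8% of all genes). The means of 9 lay above WT and of 2 below, with a median difference of 0.505. The 2 below were Kcnmb1 (8.87 in WT and 7.63 in Sos1/2DKO) and Mcam (10.26 and 9.23). Of these markers 3 were called higher in Sos1/2DKO than in Sos2KO (3.33% of all genes) and 1 higher in Sos1KO than in Sos2KO (2.8%). The mean over the list was 7.46 to 7.64 in WT, 7.51 to 7.78 in Sos1KO, 6.98 to 7.60 in Sos2KO and 7.73 to 8.17 in Sos1/2DKO. Rgs5, a pericyte marker, differed by 2.30 in Sos1/2DKO (adjusted p = 0.0660), and Myocd, the smooth muscle cofactor of SRF, was below the level of weak signal on 11 of 12 arrays. Of 20 skeletal muscle markers 0 were called in Sos1/2DKO against WT. Against Sos2KO 1 was higher and 1 lower (3.33% and 2.8% of all genes). Of the 20, 5 were below that level on all 12 arrays, the defining factors Myf5 and Myf6 among them, and Myod1 was on 8, while 3 (Myog, Acta1 and Ckm) were on 0. The skeletal alpha actin gene Acta1 had a mean of 10.10 in WT and 10.63 in Sos2KO against 8.53 in Sos1KO and 7.96 in Sos1/2DKO (-2.13 from WT, adjusted p = 0.0710).

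Cardiac markers (10) gave 0 calls in Sos1/2DKO against WT, with list means of 5.49 to 5.83 in WT and 5.50 to 5.96 in Sos1/2DKO. Of 10 epithelial markers Krt18 (-1.99, limma adjusted p = 0.0172) and Krt19 (-1.34, 0.0119) fell (4.16% of all genes did). Krt18 was below the level of weak signal on 3 of 12 arrays and Krt19 on 5. The defining genes Epcam and Esrp1 were below it on 11 and 12 arrays and Cdh1 on 0. Of 8 endothelial markers 1, Emcn, fell (-2.14, limma adjusted p = 0.0203), where 4.16% of all genes did, and it was below that level on 4 arrays. Another 4 of the 8, among them Pecam1 and Cdh5, were below that level on all 12 arrays, Kdr on 1 and Esam on 0. Krt19 also fell in Sos1KO (-1.33, adjusted p = 0.0454). In Sos1/2DKO, leaving out WT replicate 1 ended the calls of Krt19, Thy1 and Twist2, WT replicate 2 those of Krt18 and Emcn, WT replicate 3 those of Emcn, Thy1 and Twist2, and Sos1/2DKO replicate 1 those of Emcn, Thy1 and Twist2; that of Krt19 in Sos1KO ended without WT replicate 1 or 3 or any Sos1KO array. The Y term ended the Sos1/2DKO calls of Krt18, Emcn, Thy1 and Twist2 and the Sos1KO call of Krt19, and fitting only the arrays without raised Dap ended those of Emcn, Thy1, Twist2 and, in Sos1KO, Krt19. None of 14 macrophage markers was called against WT in any group, and 1 was called higher in Sos1KO than in Sos2KO (2.8% of all genes). The means of 13 of 14 lay below WT in Sos1/2DKO and of 14 of 14 in Sos2KO. List means were 5.75 to 7.41 in WT, 6.20 to 7.06 in Sos1KO, 5.02 to 5.73 in Sos2KO and 5.33 to 6.18 in Sos1/2DKO. The part of other cell types in the differences of Ankrd1, Axl, Tagln2, Actg2 and Tpm3 was not tested.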

How the data were processed

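Levels were measured on Affymetrix arrays in 4 groups of 3 cultures. The authors deposited log2 values made with RMA in R 3.6.3, per the submitters' processing notes, for 29129 probe sets. Their deposited tables of differential probe sets hold log2 fold changes, p-values and adjusted p-values from limma, per the file headers, and were used only where named. The log2 differences of group means equal those fold changes to within 6.22e-09, which fixes scale and direction. The enrichment tables were not used, and the genome build of the arrays is not given in the sources used here.

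Of the probe sets, 19572 had 1 gene symbol, 0 several and 9557 none. Symbols came from the platform annotation in GEO and were updated by gene ID through RefSeq's GRCm38.p6 table where it held them, and all 37 members matched. The probe set with the highest mean was kept for 55 genes with several, which left 19505 genes. limma 3.58.1 in R 4.3.3 fitted a mean per group over 12 arrays (8 residual degrees of freedom), two-sided, with Benjamini-Hochberg adjustment over all 19505 genes and a call at an adjusted p under 0.05. Fold changes are powers of 2 of the difference. The scripts were tested on simulated data. RMA has no detection call. Precision is limited by how many arrays there are. Signal was called weak if it lay below 75% of the 5222 intron controls on that array (5.01 to 5.76).

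The 37 genes and all lists were chosen with earlier results of these data known. Named in full were members called in any comparison plus 12 familiar ones (Acta2, Tagln, Cnn1, Myh11, Srf, Yap1, Wwtr1, Tead1, Ankrd1, Ccn1, Ccn2 and Amotl2), Sos1 and Sos2, and up to 4 genes per pathway list with the smallest adjusted p in Sos1/2DKO (2 in Sos1KO); marker genes and the other members given with values were named after their values were seen. A further pathway list is not reported here. Alternatives were cyclic loess or median centring; array weights or a prior that is trended and robust; testing every probe set, or only genes above the 30th percentile of mean level; fitting only the 2 groups compared; a block for the replicate number; and leaving out single arrays. Terms for Dap, Y-linked expression and background controls of 20 or more G or C bases, and fits of arrays with or without raised Dap, were added after seeing the data.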

Additional observations from a re-analysis of the deposited data

How the results depend on the processing

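Of the differences against WT, those of Tagln2 and Axl in Sos1/2DKO kept their calls in 18 of 18 alternatives and Ankrd1 in 17. Tagln2 in Sos1KO kept it in 14, Tpm3 in 12 and Actg2 in 4. Against Sos2KO, the Sos1/2DKO calls were kept in 17 alternatives for Tagln2, 16 for Axl, 15 for Myh10, 9 for Ankrd1, 6 for Csrp2 and 2 for Wwtr1, and the Sos1KO calls in 12 for Tagln2, 11 for Myh10, 8 for Csrp2 and 4 for Wwtr1. With each array left out in turn, the members called numbered 0 to 1 in Sos1KO against WT, 0 to 2 in Sos2KO against WT, 3 to 5 in Sos1/2DKO against WT, 2 to 5 in Sos1/2DKO against Sos2KO and 0 to 5 in Sos1KO against Sos2KO.

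Members called in Sos1/2DKO against WT, 5 as reported, were 8 with array weights (9.22% of all genes), 3 with only the 2 groups, 2 on the arrays without raised Dap and 3 with the Y term. In Sos1KO against WT, 1 as reported, they were 5 with array weights (8.61% of all genes) and 0 without raised Dap. In Sos1/2DKO against Sos2KO, 6 as reported, they were 3 with all probe sets, with only the 2 groups and with the Dap term, and 2 with the high-GC term. In Sos1KO against Sos2KO, 4 as reported, they were 2 with cyclic loess, all probe sets and the Y term, and 0 with the Dap or high-GC term. The arrays with raised Dap, also among the alternatives, include only replicate 3 of Sos1KO and replicate 1 of Sos1/2DKO, so counts from that fit are not given. Moves of the median difference of the 37 genes were set against 0.151, the replicate SD of an array's median level, which is another measure. It moved by more in Sos2KO against WT with cyclic loess (-0.065) and the high-GC term (-0.051). For the interaction it did so with array weights (0.211, against 0.039 as reported). The cause of these shifts was not tested.

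Signs turned only among uncalled differences of Sos1/2DKO from WT. Cnn1 was 0.0925 with cyclic loess, 0.0533 with array weights and 0.069 with the high-GC term, and -0.379 to 0.339 with arrays left out. Ccn1 was 0.0522 with cyclic loess and 0.0506 with the high-GC term. Ccn2 was 0.0593 and 0.079 under the same settings, and -0.141 to 0.0557 with arrays left out.

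With the replicate number as a block, 4 members were called in Sos1/2DKO against WT (Actg2 lost, adjusted p = 0.0769) and 5 in Sos1/2DKO against Sos2KO (Wwtr1 lost, 0.0812). In Sos1KO against Sos2KO it stayed at 4, with Wwtr1 lost (0.0754) and Synpo2 gained, and no other member's call changed. The labels do not say that the numbers pair the samples. Deviations of same-numbered arrays correlated at -0.345 to 0.305, with 6 of 18 pairs over 0.1. Those of differently numbered arrays correlated at -0.274 to 0.370, with 14 of 36 over 0.1. These ranges cannot decide whether a number marks a shared batch in some of the groups. Of the 37 genes only Tead4 fell under the weak-signal level, on 1 array.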
